A study of Mus musculus with 24 samples.

Results

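The genes described here encode the subunits of the GABA-A receptor and the receptors for glutamate. Every gene on the array whose symbol names such a subunit was taken, which gave 39 genes of the 19938 with a probe set of their own. They are 16 GABA-A subunit genes, 4 of AMPA receptors, 6 of NMDA receptors, 5 of kainate receptors, 1 of the delta receptors and 7 of metabotropic glutamate receptors. The mean signal of 31 of them passed the filter on low signal, 5.86 log2 units, and these 31 were tested: 10 GABA-A, 4 AMPA, 5 NMDA, 5 kainate, 1 delta and 6 metabotropic genes. The other 8, Gabra6, Gabrd, Gabrp, Gabrr1, Gabrr2, Gabrr3, Grin3b and Grm6, lay under it and are given separately. Other genes of these families were not analysed here.

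The series examined how sleep loss at a fixed time of day affects the daily rhythms of transcripts of the mediobasal hypothalamus, the part of the brain that holds the arcuate and ventromedial nuclei and controls feeding and hormone release. All mice were of the strain labelled C57BL76J and carried no stated allele. Timed sleep restriction (TSR) kept mice awake by gentle handling over the first part of the light phase, zeitgeber time (ZT, hours from lights on) 0 to 6, on 5 days, allowed 2 days of free sleep, and then went on for 5 more days, while control mice (CON) were not disturbed. Tissue was taken at ZT1, ZT7, ZT13 and ZT19, with 3 arrays in each of the 8 groups, and the design text counts 3 mice for each. The ages of the mice and the day of collection within the schedule were not analysed here. Values are log2 probe-set signals, so a difference of 1 is a doubling, and differences are TSR minus CON with the standard error of the fit.

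GABA-A receptors are chloride channels built from several subunits, usually of the alpha and beta kinds with a gamma or delta one, and they carry most fast inhibition in the brain. The choice of subunit sets where a receptor sits and how it responds to GABA and to drugs. AMPA receptors carry fast excitation, NMDA receptors let calcium in when a synapse is strongly active, kainate receptors act on both sides of the synapse, and metabotropic receptors signal through G proteins. In the hypothalamus, both kinds of input set the firing of the neurons that govern hunger, body temperature and arousal.

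Of the 24 arrays, 4 stood apart by a narrow spread of signal, and the results are given with and without them. Their interquartile ranges were 2.12 to 2.25 log2 units against 2.96 to 3.28 in the other 20, and the median of their Spearman correlations with the rest was 0.836 to 0.882 against 0.976 to 0.986. They were replicate 3 of TSR at ZT1, replicate 2 of TSR at ZT13 and replicates 2 and 3 of CON at ZT19, so without them CON at ZT19 was a single array and TSR at ZT1 and ZT13 had 2 arrays each. With 1 CON array at ZT19, the test there takes that array to vary as the other groups do. The median residual standard deviation of a gene was 0.36 with all arrays and 0.11 without the 4. The p-values measure the spread between arrays, part of which may be technical, and in bulk tissue fewer cells of a type and less RNA per cell cannot be told apart.

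On all 24 arrays, 0 of the 31 genes passed an adjusted p under 0.05 at ZT1, ZT7 or ZT13 or over the average of the 4 times (limma with Benjamini-Hochberg adjustment over all 11873 genes tested). The shares of all genes that passed were 0.0505%, 0.430%, 0.413% and 2.40%, and the receptor genes at an unadjusted p under 0.05 numbered 1, 3, 5 and 4. At ZT19, by contrast, 21 of 31 (67.7%) were higher in TSR and 0 lower, where 55.5% of all genes passed and 44.4% were higher. Under quantile normalization 19 were higher and 1 lower, and the median of all genes moved from 0.60 to 0.39. That time is the one at which 2 of the 3 CON arrays were narrow.

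Without the 4 narrow arrays the receptor genes split into a group that rose and a smaller one that fell, most of them at ZT7 and ZT13. At ZT7, 9 rose and 7 fell (51.6%), against 26.8% of all genes, of which 1541 rose and 1644 fell of 11873. A fit to the 6 arrays of ZT7 alone, added after seeing the data, called 10 of the 31, 4 higher and 6 lower, and 17.7% of all genes. At ZT13, 11 rose and 5 fell (51.6%), against 24.2% and 21.9% of all genes and 46.1% together. At ZT19, 6 rose and 1 fell (22.6%), against 17.7% and 7.08% of all genes and 24.8% together. At ZT1, 1 rose and 1 fell (6.45%), against 6.99% and 3.12% and 10.1% together. Over the average of the 4 times 12 rose and 6 fell (58.1%), against 33.6% and 22.9% and 56.5% together. Under quantile normalization 2 rose and 3 fell at ZT1, and 8 rose and 3 fell at ZT19. The share of receptor genes was thus above that of all genes at ZT7 and near it at ZT13, at ZT19 and over the average. The median absolute difference of the 31 genes was 0.25 at ZT7 against 0.14 for all genes, 0.30 against 0.23 at ZT13, 0.25 against 0.23 at ZT19 and 0.11 against 0.14 at ZT1. The arrays of CON and TSR did not overlap in 13 of the 31 genes at ZT1, 17 at ZT7, 21 at ZT13 and 27 at ZT19, where the shares of all genes were 52.4%, 36.1%, 62.5% and 79.6%.

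In all, 24 of the 31 genes passed at 1 or more times and 7 at none, where 61.4% of all genes passed at 1 or more, and 6 passed at 3 times, where 12.2% of all genes passed at 3 or more. At ZT7 16 and at ZT13 16 of the 31 genes passed, and 10 of the 31 passed at both times, where 18.4% of all genes tested did. All 10 had the same sign at both times, and so did 95.5% of the genes that passed at both among all genes. The 6 that were higher at both times were Gabra4, Gabrb2, Gria3, Grik2, Grm3 and Grm7, and the 4 that were lower were Gabre, Grid1, Grik3 and Grik5. When each array was left out in turn, 9 of the 16 calls at ZT7, 11 of 16 at ZT13, 4 of 7 at ZT19 and 1 of 2 at ZT1 stayed under the threshold each time, and the others are named with their genes. The count at ZT19 was 4 without replicate 1 of TSR at that time. At ZT1 it was 1 when any of 10 arrays was left out and 3 when any of 6 was.

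**Figure D1:**
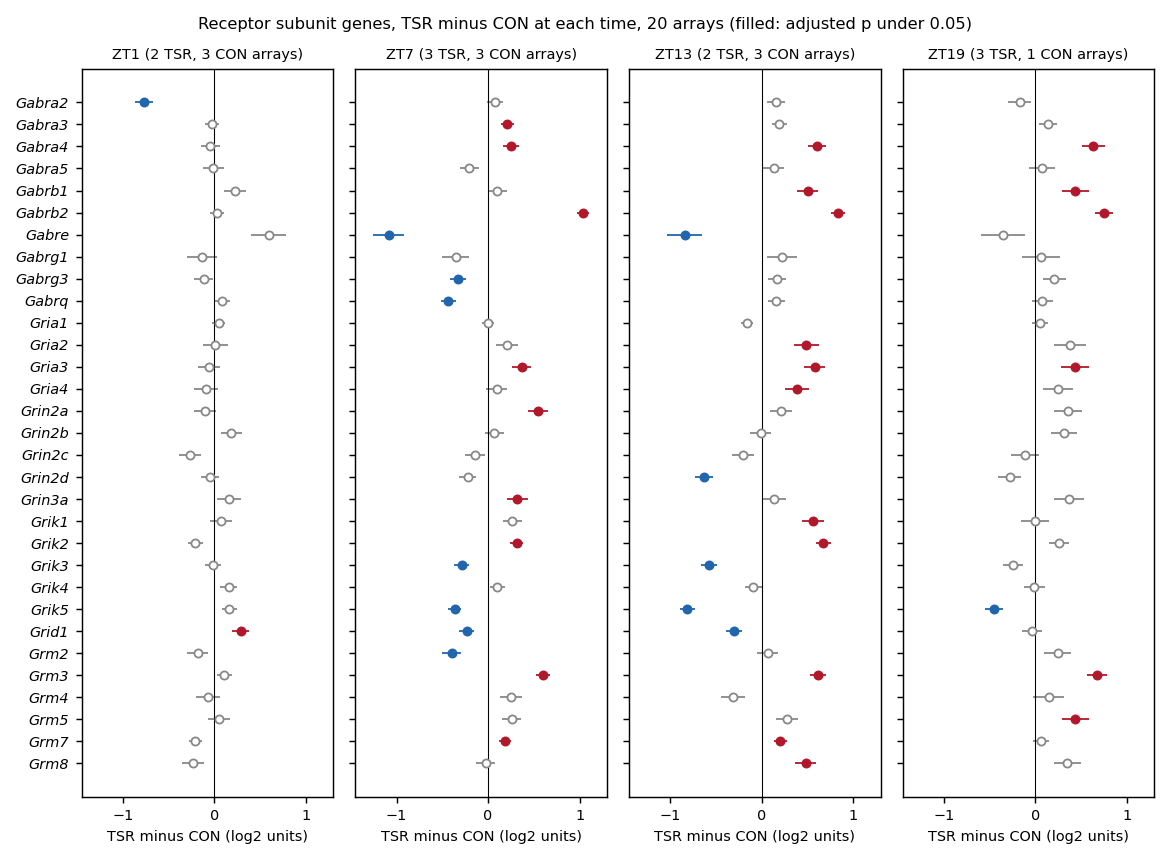
Difference TSR minus CON in log2 units (x axis) for each of the 31 tested receptor genes (rows) at the 4 times, from the fit to 20 arrays; bars are the standard error, and filled points passed an adjusted p under 0.05. Filled points are most numerous at ZT7 and ZT13, with 16 each, and Gabrb2 lies farthest to the right at ZT7, at 1.04, and Gabre farthest to the left, at -1.09.

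The 250 bases before the start of 4 genes are printed because, of the 10 genes that passed at both ZT7 and ZT13, they had the largest mean changes over these times, 2 higher in TSR (Gabrb2 and Grm3) and 2 lower (Gabre and Grik5). The sequences are those of RefSeq on GRCm38.p6, in the direction of the gene, and 29 of the 39 receptor genes had at least 1 entry, with 36 promoters in all. Gabrb2, Entrez gene 14401, has 3 listed starts, and the first one, at chr11:42420190-42420439 on the plus strand, is shown. Grm3 (Entrez gene 108069) lies at chr5:9725353-9725602, Gabre (14404) at chrX:72274722-72274971 and Grik5 (14809) at chr7:25072370-25072619, all on the minus strand. Capitals mark the one motif found.
Gabrb2: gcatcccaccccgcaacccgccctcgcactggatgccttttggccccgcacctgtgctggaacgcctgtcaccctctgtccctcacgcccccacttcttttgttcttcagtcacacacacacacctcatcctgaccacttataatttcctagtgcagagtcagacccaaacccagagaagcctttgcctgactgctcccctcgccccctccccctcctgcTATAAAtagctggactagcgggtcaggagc
Grm3: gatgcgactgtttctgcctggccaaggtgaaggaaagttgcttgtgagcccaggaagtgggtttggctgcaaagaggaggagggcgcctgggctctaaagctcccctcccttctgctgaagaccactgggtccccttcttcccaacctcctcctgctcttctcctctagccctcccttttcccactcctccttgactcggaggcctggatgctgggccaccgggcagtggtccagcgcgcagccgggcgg
Gabre: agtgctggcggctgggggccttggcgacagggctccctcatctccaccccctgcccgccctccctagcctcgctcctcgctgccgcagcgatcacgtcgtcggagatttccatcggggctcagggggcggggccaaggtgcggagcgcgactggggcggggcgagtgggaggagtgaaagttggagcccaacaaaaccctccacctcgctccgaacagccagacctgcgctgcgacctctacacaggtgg
Grik5: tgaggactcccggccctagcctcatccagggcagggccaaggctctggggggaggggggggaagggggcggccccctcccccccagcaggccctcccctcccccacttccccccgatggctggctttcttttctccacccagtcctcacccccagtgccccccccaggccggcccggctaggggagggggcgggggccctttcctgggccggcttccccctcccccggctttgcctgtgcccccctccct
These stretches were rich in G and C, at 58.8% for Gabrb2, 62.4% for Grm3, 68.8% for Gabre and 75.2% for Grik5, where the median was 58.8% over the receptor promoters and 52.4% over all 32851 promoters in the table. The capitals in Gabrb2 are a TATA box, TATAAA, ending 24 bases before the start, a motif that 12.4% of all promoters held on either strand and that was also found in front of Gabra3 and Grin3b. The E-box CACGTG, which clock proteins bind, was in 0 of the 36 receptor promoters and in 6.02% of all, and the full cyclic AMP response element TGACGTCA was in 0 and in 1.55%. Its shorter form TGACG, which lies within the full one, was found in front of Gabrr1 and Grm8 and in 17.8% of all promoters, and the D-box TTATGTAA in front of Gabrr2 and in 0.819%. The 4 windows shown shared none of the 5 motifs searched. Each motif was in 0.819% to 17.8% of all promoters, so 4 windows cannot show whether genes that rose or fell share one. The windows before starts 2 and 3 of Gabrb2 held none of the motifs, at 54.0% and 36.8% G and C.

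The families are described without the narrow arrays unless all 24 are named. Among the GABA-A subunit genes, Gabrb2, which encodes the beta2 subunit, had the largest rise. Its CON arrays read 10.32, 10.41 and 10.46 at ZT1, and its TSR arrays of usual spread there read 10.40 and 10.44. At ZT7 CON read 9.79, 9.81 and 9.55 and TSR 10.77, 10.77 and 10.72. At ZT13 CON read 9.86, 9.89 and 9.96, and TSR read 10.64 and 10.83. The groups overlapped at ZT1 and lay well apart at ZT7 and ZT13. At ZT19 the CON array of usual spread read 9.75 and the 3 TSR arrays 10.59, 10.45 and 10.46. The signal was therefore highest at ZT1 in CON and stayed near or above that level at all times in TSR. The difference was 1.04 ± 0.07 at ZT7 (adjusted p 1.49e-09), 0.83 ± 0.08 at ZT13 (1.32e-07), 0.75 ± 0.10 at ZT19 (5.12e-05) and 0.03 ± 0.08 at ZT1 (0.85). Over the 4 times it was 0.66 ± 0.04 (adjusted p 2.7e-10), and on all 24 arrays 0.72 ± 0.19 with an adjusted p of 0.0533, just over the threshold. Gabrb2 was the one receptor gene with 3 probe sets, and all of them were higher in TSR at the 3 later times, by 0.84 to 1.04 at ZT7, 0.80 to 0.99 at ZT13 and 0.43 to 0.75 at ZT19. At ZT1 they differed in sign, at 0.03, -0.11 and -0.27.

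Gabre, which encodes the epsilon subunit, a rare subunit of hypothalamic and brainstem neurons, changed in the opposite direction. In CON it read 7.55, 7.58 and 7.52 at ZT1 and 8.29, 8.57 and 7.82 at ZT7. In TSR the 2 arrays at ZT1 read 8.20 and 8.09 and the 3 at ZT7 7.18, 7.09 and 7.14. The order of the groups at ZT1 was thus the reverse of that at ZT7, with no overlap at either time. At ZT13 CON read 8.22, 8.53 and 8.38 and TSR 7.18 and 7.90, and at ZT19 CON read 8.01 and TSR 8.01, 7.43 and 7.54. The difference was -1.09 ± 0.17 at ZT7 (adjusted p 8.78e-05) and -0.84 ± 0.19 at ZT13 (0.00137), and without replicate 1 of TSR the latter was -0.48 (0.0764). At ZT1 it was 0.59 ± 0.19 with an adjusted p of 0.0538, and at ZT19 -0.35 ± 0.24 (0.281). Over the 4 times the fall was 0.42 on the log2 scale (adjusted p 0.00148).

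Gabra4, whose alpha4 subunit sits mostly outside synapses, rose at ZT7, ZT13 and ZT19. CON read 7.99, 8.05 and 7.87 at ZT7, 7.81, 8.17 and 7.96 at ZT13 and 7.93 in the array of usual spread at ZT19. TSR read 8.20, 8.14 and 8.33 at ZT7, 8.45 and 8.72 at ZT13 and 8.61, 8.60 and 8.48 at ZT19. The groups did not overlap at these times. The difference was 0.60 ± 0.10 at ZT13 (adjusted p 8.59e-05) and 0.63 ± 0.13 at ZT19 (0.00208), and the smaller one at ZT7, 0.25 ± 0.09 (0.0458), lost the threshold when any of 11 arrays was left out, with an adjusted p of up to 0.181. Gabrb1, the beta1 gene, rose by 0.50 ± 0.12 at ZT13 (0.00164) and by 0.44 ± 0.15 at ZT19 (0.0362), the latter reaching an adjusted p of 0.0874 without replicate 1 of TSR and 0.0535 without replicate 2. At ZT1 and ZT7 its differences were 0.23 and 0.10, and neither passed.

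Gabra2, which encodes the alpha2 subunit found at synapses onto cell bodies and axons, was the single one of the 10 tested GABA-A genes that changed at ZT1 on the 20 arrays. CON read 8.32, 8.61 and 8.40 there and TSR 7.73 and 7.62, a difference of -0.77 ± 0.10 (adjusted p 8.32e-05). Every CON array thus lay above both TSR arrays. At the later times its differences were 0.07, 0.16 and -0.17, none of which passed. Of the others, Gabrg3 (gamma3) fell by 0.33 and Gabrq (theta) by 0.43 at ZT7, with adjusted p 0.00887 and 0.000473. Gabrq read 9.30, 9.28 and 9.03 in CON and 8.69, 8.82 and 8.80 in TSR at ZT7, so that all its TSR arrays were the lower ones. Gabra3 rose by 0.21 at ZT7 (0.0333), a call that was lost without any 1 of 4 of the 6 arrays of that time and whose value was 0.11 without replicate 3 of CON. On these 20 arrays Gabra5 and Gabrg1 passed at no time, with differences between -0.14 and 0.22 at ZT1, ZT13 and ZT19 and of -0.21 and -0.35 at ZT7.

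**Figure D2:**
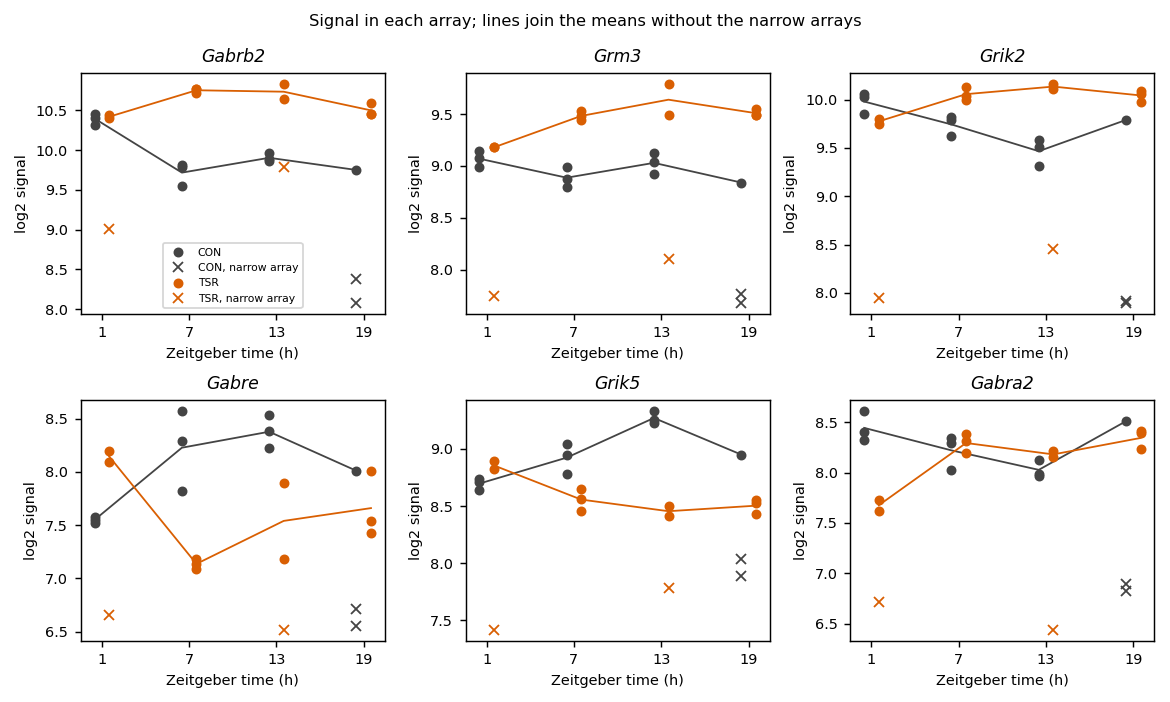
Log2 signal of 6 receptor genes (y axis) in each of the 24 arrays against zeitgeber time in hours (x axis), with CON in grey and TSR in orange; crosses are the 4 narrow arrays, and lines join the means of the other arrays. Gabrb2 and Grm3 lie higher in TSR from ZT7 on, Gabre and Grik5 lower at ZT7 and ZT13, and Gabra2 lower in TSR at ZT1, while the crosses lie far below the points of their groups.

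Among the AMPA receptor genes every call was a rise. Gria3 (GluA3) read 9.41, 9.62 and 9.04 in CON and 9.67, 9.77 and 9.73 in TSR at ZT7. At ZT13 it read 9.19, 9.39 and 9.39 in CON and 9.82 and 9.98 in TSR, and at ZT19 9.44 in CON and 9.99, 9.76 and 9.85 in TSR. All TSR arrays of usual spread were above all CON arrays at these 3 times. The differences were 0.37 ± 0.11 (adjusted p 0.0134), 0.58 ± 0.12 (0.000579) and 0.43 ± 0.15 (0.0403). The first was 0.21 with an adjusted p of 0.0847 without replicate 3 of CON at ZT7 and reached 0.0524 without replicate 2 of TSR. The last was lost when any of 4 arrays was left out, and reached 0.107 without replicate 1 of TSR at ZT19. Gria2, whose GluA2 subunit keeps calcium out of the channel, and Gria4 rose at ZT13 and, on the 20 arrays, passed at no other single time, by 0.49 ± 0.14 (0.00656) and 0.38 ± 0.13 (0.0203), and lost the threshold without replicate 3 of TSR at ZT13, at 0.104 and 0.219. Gria4 also lost it without replicate 1 of CON, at 0.25 (0.111). Without the narrow arrays Gria1 (GluA1) passed at no time and lay between -0.16 and 0.05.

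Of the 5 NMDA receptor genes tested, Grin2a rose at ZT7 and Grin2d fell at ZT13. Grin2a, which encodes the GluN2A subunit of mature synapses, read 7.24, 7.36 and 7.08 in CON and 7.69, 7.91 and 7.72 in TSR at ZT7, a difference of 0.55 ± 0.11 (adjusted p 0.000708). At ZT13 its CON arrays read 7.59, 7.85 and 7.65 and its TSR arrays 7.72 and 8.10, which overlapped. Grin2d, whose GluN2D subunit gives slow channels, read 8.11, 8.10 and 8.08 in CON at ZT13 and 7.52 and 7.41 in TSR, a difference of -0.63 ± 0.10 (4.59e-05). It was below 0 at the other times too, at -0.05, -0.22 and -0.28, without passing, and fell by 0.30 over the 4 times (8.51e-05). Grin3a rose by 0.32 at ZT7 (0.0481), and its call was lost when any of 13 arrays was left out, with 0.21 (0.198) without replicate 3 of CON. Grin2c fell by 0.18 over the 4 times alone (0.0217) and reached 0.0709 without replicate 1 of TSR at ZT13 and 0.059 without replicate 2 of TSR at ZT1. Grin2b passed at no time on the 20 arrays.

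The kainate receptor genes changed in both directions at ZT13. Grik1 and Grik2 rose and Grik3 and Grik5 fell. The first 3 encode GluK1, GluK2 and GluK3, subunits able to form channels alone, and Grik5 encodes GluK5, which needs a partner of that kind, so the directions did not follow this division. Grik5 read 9.25, 9.23 and 9.33 in CON at ZT13 and 8.41 and 8.50 in TSR. At ZT7 it read 9.04, 8.95 and 8.78 in CON and 8.56, 8.46 and 8.65 in TSR, and at ZT19 8.95 in CON and 8.55, 8.53 and 8.43 in TSR. TSR was lower in every array of usual spread at these times. The differences were -0.36 ± 0.07 at ZT7 (adjusted p 0.0007), -0.81 ± 0.08 at ZT13 (2.53e-07) and -0.45 ± 0.10 at ZT19 (0.0041), against 0.16 ± 0.08 at ZT1 (0.193). Grik2 read 9.31, 9.58 and 9.51 in CON at ZT13 and 10.11 and 10.16 in TSR, a difference of 0.67 ± 0.08 (3.19e-06). At ZT7 it averaged 9.74 ± 0.11 in CON and 10.06 ± 0.07 in TSR (SD, n = 3), a difference of 0.31 ± 0.07 (limma adjusted p 0.00364). Grik3 read 9.26, 9.30 and 9.26 in CON at ZT13 and 8.59 and 8.82 in TSR, a difference of -0.57 ± 0.09 (3.45e-05). Both genes thus had separate groups at ZT13, in opposite directions. Grik3 also fell by 0.29 at ZT7 (0.00862), which reached 0.0591 without replicate 1 of CON, and Grik1 rose by 0.56 at ZT13 (0.000922). Grik4, whose GluK4 subunit also needs a partner, passed at no time, with -0.09 at ZT13.

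Grid1 encodes GluD1, which opens no channel to glutamate and joins synapses by binding cerebellin proteins. It was higher in TSR at ZT1, by 0.28 ± 0.09 (adjusted p 0.0441), and lower at ZT7, by 0.23 (0.0319), and at ZT13, by 0.30 (0.00895). These calls were the less firm ones: the rise at ZT1 was lost when any of 11 arrays was left out, the fall at ZT7 with any of 3, and the fall at ZT13 was 0.16 without replicate 1 of TSR (0.213).

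Grm3 led the metabotropic genes, with a rise of like size at 3 times. It encodes mGlu3, which lowers cyclic AMP and is made by astrocytes as well as neurons. CON read 8.80, 8.99 and 8.87 at ZT7, 8.92, 9.04 and 9.13 at ZT13 and 8.84 at ZT19. TSR read 9.44, 9.48 and 9.53 at ZT7, 9.49 and 9.79 at ZT13 and 9.55, 9.49 and 9.49 at ZT19. Groups did not overlap at any of these times, and the differences were 0.60 ± 0.08 (adjusted p 7.46e-06), 0.61 ± 0.08 (1.23e-05) and 0.67 ± 0.11 (0.000355). At ZT1 CON read 8.99, 9.08 and 9.14 and both TSR arrays 9.18, and the difference of 0.11 did not pass. Grm2, which encodes the related mGlu2, fell at ZT7 by 0.40 ± 0.10 (0.00667), with 7.91, 7.58 and 7.78 in CON and 7.32, 7.43 and 7.33 in TSR. The related pair thus had opposite signs at ZT7. Of the receptors placed before the synapse, Grm8 rose by 0.48 ± 0.12 at ZT13 (0.00226), and Grm7 rose by 0.18 at ZT7 (0.0389) and 0.20 at ZT13 (0.028), calls that were lost without any 1 of 5 and 4 arrays. Grm5, the single gene of the group coupled to calcium release, rose by 0.44 at ZT19 (0.0398) and reached 0.12 without replicate 1 of TSR there. Grm4 passed at no time on the 20 arrays.

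The 21 calls of the 24 arrays at ZT19 were rises in every family but the delta one. They numbered 7 of 10 GABA-A genes, from 1.18 for Gabrg3 to 2.07 for Gabrb1, with 1.77 for Gabrb2, 1.85 for Gabrq, 1.57 for Gabra4 and 1.20 for both Gabra3 and Gabrg1. All 4 AMPA genes passed, at 1.02 for Gria1 and Gria4, 1.13 for Gria2 and 1.38 for Gria3. Of the NMDA genes 3 passed, at 1.24 for Grin2a and 1.25 for Grin2b and Grin3a, and of the kainate genes Grik2, at 1.51. All 6 metabotropic genes passed, at 0.38 for Grm4, 0.56 for Grm2, 0.94 for Grm5, 1.09 for Grm8, 1.18 for Grm7 and 1.42 for Grm3. Adjusted p lay between 0.0195 and 0.0458. The standard errors, 0.16 to 0.64, were larger than those without the narrow arrays for 20 of the 21 genes, the exception being Grm4 at 0.16 against 0.17. The median of all genes in the same contrast was 0.60, and that of the receptor genes 1.09.

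Gabrb1 and Gabrq, the pair with the largest differences in that comparison, read far lower in the narrow arrays. Gabrb1 read 10.02 in the CON array of usual spread at ZT19 and 7.60 and 7.54 in the narrow ones, against 10.53, 10.43 and 10.41 in TSR. Gabrq read 9.01, 5.90 and 6.80 in the same CON arrays and 9.21, 9.02 and 9.05 in TSR. The CON array of usual spread lay just under the TSR arrays for Gabrq and further under them for Gabrb1, at 10.02 against 10.41 to 10.53. For both genes the narrow CON arrays lay far under the TSR arrays. The count of 21 went to 0 without either narrow CON array and to 0 without replicate 1 or 2 of TSR, to 9 without replicate 3 of TSR, and to 30 without the CON array of usual spread. Of the 21 genes, 6 rose at ZT19 without the narrow arrays. With the narrow arrays kept and entered as a block, 8 rose and 1 fell there.

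**Figure D3:**
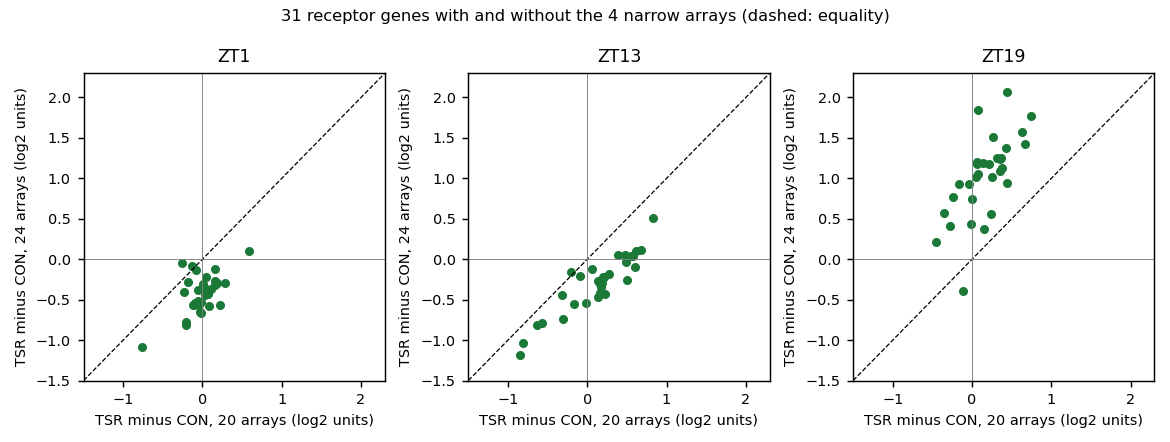
Difference TSR minus CON in log2 units of the 31 receptor genes with 24 arrays (y axis) against 20 arrays (x axis) at the 3 times that hold narrow arrays; the dashed line is equality. At ZT1 29 and at ZT13 30 of the 31 points lie under the line, and at ZT19 30 lie above it, with a median of 1.09 with all arrays and 0.14 without the narrow ones.

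The effect of TSR differed between the 4 times for 17 of the 31 genes (54.8%) without the narrow arrays, against 29.8% of all genes (limma F test of the differences between the within-time effects, adjusted p under 0.05). The smallest adjusted p were 7.32e-06 for Gabrb2, 4.12e-05 for Grik5, 0.000198 for Grik2, 0.000265 for Gabra2 and 0.000485 for Gabre. For Gabrb2 and Grik5 the effect was near 0 at ZT1 and large later, and for Gabre it was above 0 at ZT1 and below 0 later. Gabra2 fell at ZT1 and passed at no later time. On all 24 arrays 0 of 31 passed, with 0.261% of all genes, and 22 had an unadjusted p under 0.05. The number that passed the adjusted threshold went from 0 to 29 when the CON array of usual spread at ZT19 was left out.

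A 24-h rhythm, tested by limma as a cosine over the 4 times, was called in 7 of the 31 genes in CON (22.6%, against 21.5% of all genes) and in 19 in TSR (61.3%, against 21.6%) without the narrow arrays. On all 24 arrays 0 passed in either condition, against 0.109% and 0.0842% of all genes, with 8 and 1 at an unadjusted p under 0.05. Under quantile normalization, again without the narrow arrays, 12 passed in CON and 24 in TSR. The shares of all genes in that fit were 27.1% and 28.1%. The difference between the conditions in the number of rhythmic genes was not itself tested. The 7 in CON were Gabra2, Gabrb2, Gabre, Grid1, Grik2, Grik5 and Grm7, and all but Grm7 were called in TSR too. In TSR 13 of the 19 peaked from ZT13 to ZT18, in the dark phase, and 4 from ZT22 to ZT2, while in CON 4 of 7 peaked from ZT22 to ZT2. Amplitudes were 0.16 to 0.40 in TSR, with a median of 0.25, and 0.16 to 0.43 in CON. CON at ZT19 rested on 1 array in this test.

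The largest amplitudes in TSR were 0.40 log2 units for Gabre, which peaked at ZT22.3 (adjusted p 0.0162), 0.38 for Grm8 at ZT16.4 (0.000361), 0.34 for Gabrg1 at ZT17.0 (0.0108) and 0.32 for Gria2 at ZT16.1 (0.00694). In CON they were 0.43 for Gabre, which peaked at ZT12.0 (0.00481), 0.29 for Grik5 at ZT13.2 (5.4e-05), 0.26 for Grik2 at ZT0.7 (0.000213) and 0.26 for Gabra2 at ZT22.7 (0.00283). Several of the 6 genes rhythmic in both peaked at other hours in TSR. Grik5 peaked at ZT1.5 in TSR, Grik2 at ZT12.9, Gabra2 at ZT13.4 and Grid1 at ZT22.7 against ZT12.8 in CON. Gabrb2 peaked at ZT0.7 in CON and ZT10.4 in TSR. The shift of the peak was not tested as such, but all 6 were among the genes whose effect differed between times.

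**Figure D4:**
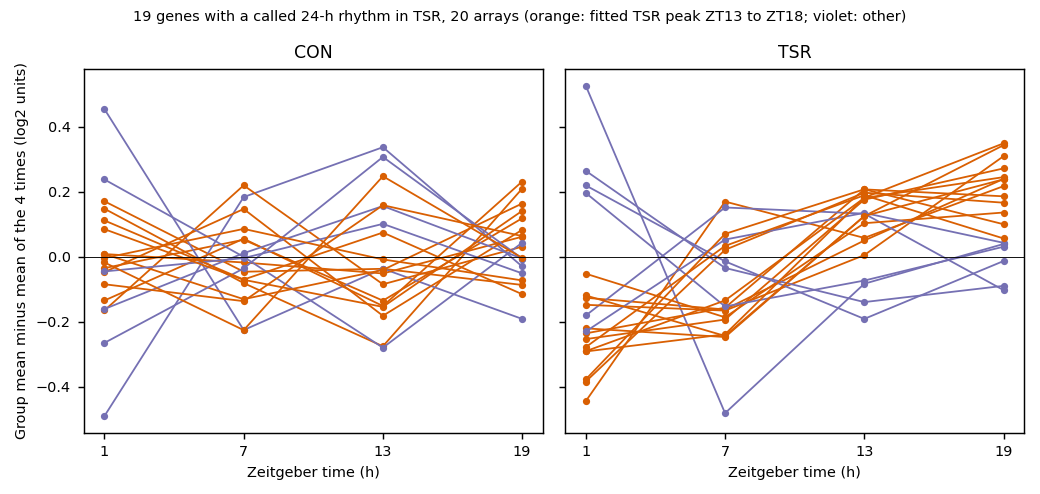
Group mean minus the mean of the 4 group means in log2 units (y axis) against zeitgeber time in hours (x axis) for the 19 receptor genes with a called 24-h rhythm in TSR, in CON (left) and TSR (right), 20 arrays; orange lines peak from ZT13 to ZT18 in TSR and violet lines at other hours. In TSR the 13 orange lines lie below 0 at ZT1 and above it at ZT13 and ZT19, and in CON 6 lie above 0 at ZT1, 5 at ZT7, 3 at ZT13 and 9 at ZT19. The orange genes were picked by their TSR peak, so their course in TSR largely follows from the choice, while CON had no part in it.

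The 8 genes under the filter had mean signals of 3.94 to 5.75 log2 units and were fitted without the filter. Gabrd, whose delta subunit gives tonic inhibition outside synapses, read 5.17, 5.07 and 5.52 in CON and 5.71, 6.06 and 5.75 in TSR at ZT7, with a difference of 0.58 ± 0.13 (adjusted p 0.00349 without the narrow arrays). Its groups did not overlap there. Gabrr2 was higher in TSR at ZT1 by 0.52 ± 0.14 (0.0369), Gabrr1 was lower at ZT13 by 0.43 (0.0473), and Grin3b was lower over the 4 times by 0.30 (0.0266). Gabra6, Gabrp, Gabrr3 and Grm6 passed at no time without the narrow arrays. The mean signal of Gabrr1 was only 4.23. For the 20 arrays neither the share of all genes under the filter that passed nor the effect of leaving out each array is given. The calls of these weak genes therefore cannot be set against such a share. On all 24 arrays 5 of the 8 passed at ZT19 and all 5 were lower in TSR, where 45.5% of all genes under the filter passed and 42.3% were lower, from -0.80 for Gabrd to -1.25 for Grin3b.

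Many GABA-A genes lie side by side in the mouse genome, and on chromosome X neighbours differed in direction at ZT7. By gene order on GRCm38.p6, 13 of the receptor genes formed 5 groups of neighbours. On chromosome X, Gabre and Gabrq were lower at ZT7 and Gabra3, which lies between them, was higher. The call of Gabra3 was not firm: it was lost when any of 4 arrays was left out, and its difference was 0.11 without replicate 3 of CON. On chromosome 5, Gabra4 and Gabrb1 rose at ZT13 by 0.60 and 0.50. Their neighbours Gabra2 and Gabrg1 were also above 0 there, at 0.16 and 0.22, without passing. At ZT19 the differences of these genes were 0.63, 0.44, -0.17 and 0.06 in the same order. On chromosome 7, Gabrg3 fell at ZT7 and its neighbour Gabra5 had a difference of the same sign, -0.21, that did not pass. On chromosomes 4 and 11, Gabrr1, Gabrr2 and Gabra6 lay under the filter, and these groups were not compared.

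Genes that act with these receptors were counted by lists of partner genes, without the narrow arrays, and called genes went in both directions. Of all genes, 26.8% passed at ZT7 and 46.1% at ZT13. Several of the lists lay near that share at ZT13. Of 16 genes that anchor or move GABA-A receptors, 3 rose and 5 fell at ZT7 and 2 rose and 6 fell at ZT13. Hap1, which aids return of the receptor to the membrane, fell by 0.88 at ZT7 and 0.84 at ZT13, and Nlgn2, the neuroligin of inhibitory synapses, by 0.50 and 0.78. Gphn, which encodes the scaffold gephyrin, rose by 0.21 at ZT13. Of 8 genes of GABA synthesis, transport and GABA-B receptors, 2 rose and 3 fell at ZT7 and 0 rose and 5 fell at ZT13, with Gad1, which makes GABA, up by 0.49 at ZT7 and Gabbr1 and Gabbr2 down by 0.26 and 0.27. Of 3 chloride transporter genes, Slc12a2, which brings chloride in, rose by 0.69 at ZT13 and Slc12a5, which takes it out, fell by 0.32.

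Of 16 auxiliary subunits of AMPA and kainate receptors, 4 rose and 4 fell at ZT7 and 3 rose and 5 fell at ZT13. The shares of all genes that passed were again 26.8% at ZT7 and 46.1% at ZT13. Neto1 and Neto2, partners of kainate receptors, rose by 0.89 and 0.66 at ZT7, and Cnih2, which escorts AMPA receptors, fell by 0.74. Of 17 scaffold genes of glutamate synapses, 4 rose and 1 fell at ZT7 and 3 rose and 7 fell at ZT13. Homer1, which links metabotropic receptors to calcium stores, rose by 0.72 and 0.83, and Dlg4, which encodes PSD-95, fell by 0.47 and 0.75. Of 5 genes that bind delta receptors across the synapse, 0 rose and 2 fell at ZT7 and 2 rose and 2 fell at ZT13, and Cbln1, cerebellin 1, had the largest change, -1.01 at ZT7. Of 8 genes of glutamate transport and metabolism, 1 rose and 1 fell at ZT7 and 3 rose and 1 fell at ZT13. The medians of the 7 lists lay between -0.22 and 0.05 at ZT7 and between -0.32 and 0.01 at ZT13, against 0.00 and -0.00 for all genes. On all 24 arrays Cbln1 alone of these lists passed at ZT7 (-1.01, adjusted p 0.0194) and Slc17a7, the vesicular glutamate transporter of cortex, alone at ZT13 (1.86, 0.000298).

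Markers of cells and regions were counted in the same way, again without the narrow arrays. Of all genes, 10.1% passed at ZT1, 26.8% at ZT7 and 46.1% at ZT13. The share at ZT19, which rests on a single CON array, is given above. At ZT13 the astrocyte, microglial, and endothelial and mural lists lay below the share of all genes. Of 5 marker genes of basal forebrain cholinergic neurons, 5 rose at ZT7, with a median of 1.67 and mean levels of 6.51 to 6.58 in CON and 8.26 to 8.37 in TSR. At ZT13 and at ZT19 4 of them rose and 0 fell, with medians of 0.66 and 0.69, and at ZT1 1 rose. Slc5a7, the choline transporter, rose by 3.16, while Chat lay under the filter at a mean of 5.77. Of 7 striatal markers, 6 rose at ZT7 (mean levels 7.57 to 7.61 in CON and 8.43 to 8.47 in TSR), 1 rose and 3 fell at ZT13, and 6 rose at ZT19 with a median of 0.55. Of 9 markers of the suprachiasmatic nucleus, 9 fell at ZT7, from levels of 8.004 to 8.048 in CON to 7.314 to 7.369 in TSR, and 6 fell at ZT13, while at ZT19 3 rose and 0 fell, with a median of 0.18. Of 9 markers of cortex and thalamus, 5 rose and 1 fell at ZT13 and at ZT19, and the cortical marker Neurod6 had a mean of 2.36. Of 8 oligodendrocyte markers, 7 rose at ZT1, from 8.95 to 8.97 in CON to 9.56 to 9.58 in TSR. Of 12 neuron markers, 6 rose and 1 fell at ZT7 and 4 rose and 3 fell at ZT13. Of 9 astrocyte markers 0 rose and 3 fell at ZT7 and 2 rose and 0 fell at ZT13, and of 9 endothelial and mural markers 5 rose and 1 fell at ZT7 and 1 rose and 2 fell at ZT13. Of 6 oligodendrocyte precursor markers 1 rose and 3 fell at ZT13, of 6 microglial ones 0 rose and 1 fell, and of 4 ependymal ones 4 fell at ZT7. The part of these markers in the changes of the receptor genes was not tested.

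The tissue label was checked against 10 arcuate and ventromedial markers on the array. Of these, 7 passed the filter, and Pomc, Nr5a1 and Nkx2-1, with means of 5.75, 5.73 and 5.77, did not. All 7 passed and were lower in TSR over the average of the 4 times, with a median of -0.26. Of all genes, 22.9% were lower in that contrast, and the median of all genes was 0.03. The receptor genes there, of which 12 rose and 6 fell, passed at a share near the 56.5% of all genes.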

How the data were processed

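RNA of the mediobasal hypothalamus was isolated with Trizol and hybridised to Affymetrix arrays, per the labels. The deposited values are log2 probe-set signals, which the authors made with Affymetrix Expression Console, as the submitters' processing notes state. How probes were summarized and arrays normalized, and with which release, was not given in the sources used here. Of 853344 cells, 2136 (0.250%) had a shifted decimal point and were restored, 72 were set to missing and 9 were missing as deposited; 0 of the restored or missing cells were in the probe sets used for receptor genes. Of 35556 probe sets, 21789 had exactly 1 gene symbol, 1621 several and 12146 none, and only the first were used. Where a gene had several, the probe set of highest mean was kept, and genes whose mean lay under 5.86 log2 units, the percentile 40 over probe sets, were not tested, leaving 11873 genes.

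Groups came from the descriptions and titles of the samples. Group means of the 8 groups were fitted with limma 3.58.1 in R 4.3.3 (eBayes with a trend), to 24 arrays and to the 20 with an interquartile range of 2.5 or more, and p-values were adjusted by Benjamini-Hochberg over all genes tested (2-sided). A rhythm was a 24-h cosine, tested by the contrasts ZT1 minus ZT13 and ZT7 minus ZT19. The fit was tested on simulated data. Receptor genes chosen for full statistics were those that passed on 24 arrays. On 20 arrays they were the 4 largest rises and falls per contrast and the 4 largest amplitudes per condition. For some of them the text gives the difference alone or a range of standard errors and adjusted p, and not every average is printed. Genes of the partner and marker lists are examples picked after their values were seen. The members and lists were chosen with earlier results of these data known. Alternatives were no filter, quantile normalization, the replicate number as a block, the mean of probe sets, no trend, restored cells set to missing and each array left out; the narrow arrays as a block and a fit to ZT7 alone were chosen after seeing the data. The number of arrays limits the precision.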

Additional observations from a re-analysis of the deposited data

Results flagged for a closer look

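In 17 receptor genes the effect of TSR differed between the 4 times on 20 arrays (limma F test of the differences, adjusted over all genes). The adjusted p were 7.32e-06 for Gabrb2, 4.12e-05 for Grik5, 0.000198 for Grik2, 0.000265 for Gabra2 and 0.000485 for Gabre. They were 0.00323 for Gabrq, 0.00501 for Gabra4, 0.00511 for Grid1, 0.00528 for Grm3 and 0.00905 for Grm8. The remaining ones were 0.0119 for Grm7, 0.0138 for Grik3, 0.0175 for Gabrg3, 0.0207 for Grin2d, 0.025 for Grin2a, 0.0288 for Grm2 and 0.0312 for Gria3. The share was 54.8% of the receptor genes tested and 29.8% of all genes.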

How the results depend on the processing

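On 24 arrays, quantile normalization gave 3 calls over the average, 1 at ZT7, 2 at ZT13 and 1 gene whose effect differed between times, where each count had been 0. The mean of all probe sets and the fit without a trend each gave 1 over the average. With the narrow arrays as a block, chosen after seeing the data, the counts were 19 over the average, 1 at ZT1, 9 at ZT7, 16 at ZT13, 9 at ZT19, 9 for the difference between times, and 5 and 10 for a rhythm in CON and TSR. Leaving out each array gave 0 to 30 calls at ZT19, 0 to 3 over the average and at ZT13 (3 without the narrow TSR array of ZT1), 0 to 29 for the difference between times and 0 to 26 for a rhythm in CON; the last maximum, and that of 29, came without the CON array of usual spread at ZT19. On 20 arrays, quantile normalization gave 5 calls at ZT1 (2 higher, 3 lower), 11 at ZT19 (8 higher, 3 lower) and 12 rhythms in CON, and kept all the calls of the main analysis with their sign. It moved the median difference of all genes at ZT19 from 0.60 to 0.39 on 24 arrays and from 0.08 to 0.02 on 20. The fit without a trend gave 1 at ZT1 and 4 at ZT19. A fit to the 6 arrays of ZT7 alone gave 10 there. Leaving out each array gave 1 to 3 at ZT1, 11 to 18 at ZT7, 13 to 20 at ZT13, 4 to 9 at ZT19, 17 to 21 over the average, 13 to 20 for the difference between times, 6 to 9 rhythms in CON and 13 to 22 in TSR; without the 1 CON array left at ZT19, results that use that group could not be fitted. With the replicate number as a block, 20 arrays gave 1 call at ZT1, and no count other than this and that at ZT19 moved by over 1.5 times. Deviations of same-numbered arrays of CON and TSR correlated from -0.43 to 0.39 on all 24 arrays, and from 0.17 to 0.39 at ZT19. These deviations include the narrow arrays, so they cannot show whether the numbers pair the samples. Array weights were not used because their estimate did not converge. The cause of these changes was not tested. Of the alternatives for genes chosen for full statistics, 1307 kept the call, 145 lost the threshold and 0 reversed.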
